A study of Mus musculus with 16 samples.

Results

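The loci of the 4 myogenic regulatory factor genes, Myod1, Myog, Myf5 and Myf6, held 104 of the 193322 peaks that the authors deposited for 4 transcription factors in mouse muscle cells. The members were all peaks that overlapped 3 fixed windows of the mouse build mm9: chr7:53580000-53660000 for Myod1, chr1:136140000-136230000 for Myog and chr10:106850000-107080000 for Myf5 and Myf6, which are direct neighbours and share 1 window. Of the members, 24 came from the RUNX1 list, 29 from the MyoD list, 17 from the c-Jun list and 34 from the MyoG list.

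Binding was measured by chromatin immunoprecipitation and sequencing (ChIP-seq) in wild-type C57BL/6 primary cells, grown from satellite cells of the gastrocnemius of mice that were 2 to 3 weeks old. Myoblasts still proliferating after 3 days in culture gave the RUNX1, MyoD and c-Jun data. MyoG was precipitated from cells that had spent a further 24 hours in serum-poor differentiation medium with insulin, called primary myotubes in the labels. Each of these 4 groups had 2 samples, and 4 control groups of 2, with rabbit non immune serum for RUNX1 and with IgG for each of the others, made 16 samples in all. Factor and cell stage therefore cannot be told apart for MyoG. The number of mice pooled was not given in the sources used here.

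For every factor the authors deposited 1 list of peaks, with no separation of replicates, no read counts and no values for the controls, so sequencing depth is unknown, no spread between cultures can be given and no test was possible. The values below are therefore descriptions, set beside the same measure over the whole list. The list named with an abbreviation was taken as MyoG by elimination. Each peak carried a score written by the authors' peak caller, from 50.01 to 3233. Many peaks sat at exactly 3100 and between 36 and 98 per list scored higher, but no peak at these loci scored above 3100. Scores were ranked only within their own list. A difference in rank between lists, which differ in length and, for MyoG, in cell stage, does not show a change in binding.

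The myogenic regulatory factors are basic helix-loop-helix proteins that pair with E proteins and bind the E-box, a short DNA motif. MyoD (gene Myod1) and Myf5 commit cells to the muscle lineage, MyoG drives terminal differentiation and fusion, and MRF4 (gene Myf6) acts in the embryo and in mature fibres. The 4 genes are known to regulate themselves and each other, Myod1 through enhancers upstream of its promoter, and Myf5 with Myf6 through many enhancers spread over a long interval. RUNX1 is a Runt-domain factor that pairs with CBFB, and c-Jun is a subunit of AP-1, which responds to growth signals.

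An mm9 gene annotation was not used here, so no peak is assigned to a promoter, exon or intron. In the order of protein-coding genes in RefSeq, Myod1 stands between Otog and Kcnc1, Myog between Adora1 and Ppfia4, and Myf5 and Myf6 between Lin7a and Ptprq. RefSeq promoter sequences (GRCm38.p6) matched 2 of the 4 genes. The 250 bases before the annotated start of each are shown because MyoD, MyoG and RUNX1 peaks lay in both windows. They run 5′ to 3′ on the gene's strand, with capitals for the motifs searched on both strands: the E-box CANNTG and its form CAGCTG, the RUNX motif TGNGGT, the AP-1 motif TGANTCA and the MEF2 site. Positions are of another build than the peaks and cannot be set against them.
Myog promoter, chr1:134289754-134290003, plus strand: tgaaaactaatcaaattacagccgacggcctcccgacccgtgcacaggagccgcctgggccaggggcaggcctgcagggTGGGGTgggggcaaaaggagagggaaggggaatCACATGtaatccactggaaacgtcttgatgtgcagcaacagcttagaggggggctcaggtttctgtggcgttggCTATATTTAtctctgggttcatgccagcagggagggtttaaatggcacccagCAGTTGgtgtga
Myf5 promoter, chr10:107486135-107486384, minus strand: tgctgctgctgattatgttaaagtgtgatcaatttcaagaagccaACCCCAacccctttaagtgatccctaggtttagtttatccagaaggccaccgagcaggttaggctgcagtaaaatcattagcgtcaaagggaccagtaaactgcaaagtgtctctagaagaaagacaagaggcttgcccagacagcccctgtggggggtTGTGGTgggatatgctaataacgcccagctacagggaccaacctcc
The Myog stretch held 2 E-boxes, CACATG and CAGTTG, the latter beginning at position -12 from the start, together with 1 RUNX match, TGGGGT, and 1 MEF2 match. MEF2 proteins are partners of the myogenic factors. The Myf5 stretch held no E-box and 2 RUNX matches, TGTGGT and, on the other strand, ACCCCA. Neither held CAGCTG, which is contained in CANNTG, or the AP-1 motif. Of 32851 promoter stretches of this length in the table, 66.2% held CANNTG, 13% CAGCTG, 40.1% TGNGGT, 6.75% TGANTCA and 7.07% a MEF2 site. A match is a run of letters and not a measured binding site.

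Peaks were dense around Myod1 and Myog. Around Myf5 and Myf6, RUNX1 and MyoG peaks were near the genome-wide density and MyoD and c-Jun peaks were 1.75 and 2.18 times as dense as over their lists. The Myod1 window of 80 kb held 9 RUNX1, 11 MyoD, 5 c-Jun and 13 MyoG peaks. In non-overlapping tiles of the same length over chromosomes 1 to 19 and X, 1.4% held at least as many RUNX1 peaks, 0.437% as many MyoD peaks, 7.22% as many c-Jun peaks and 1.2% as many MyoG peaks. The Myog window of 90 kb held 11 RUNX1, 11 MyoD, 4 c-Jun and 15 MyoG peaks. At least as many were found in 0.832% of tiles of that length for RUNX1, 0.703% for MyoD, 14.7% for c-Jun and 0.928% for MyoG. By number of peaks in the windows as drawn, these 2 loci thus ranked high in 3 lists and less so for c-Jun. By the length of DNA that peaks covered, 1.25% of tiles had at least as much c-Jun as the Myod1 window and 12.7% as much as the Myog window.

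The Myf5 and Myf6 window was the longest, at 230 kb, and held the fewest peaks for its length. It had 4 RUNX1, 7 MyoD, 8 c-Jun and 6 MyoG peaks. Tiles of 230 kb had at least as many in 36.4% of cases for RUNX1, 24.4% for MyoD, 18% for c-Jun and 35.1% for MyoG. The median tile held 2 RUNX1, 2 MyoD, 2 c-Jun and 3 MyoG peaks.

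Per length, MyoD peaks numbered 13.8 per 100 kb at Myod1, 12.2 at Myog and 3.04 at Myf5 and Myf6, against 1.74 over the whole list. RUNX1 peaks numbered 11.2, 12.2 and 1.74 per 100 kb in the same order, against 1.62. For MyoG the densities were 16.2, 16.7 and 2.61 per 100 kb, against 2.37. The c-Jun densities were closer to each other, at 6.25, 4.44 and 3.48 per 100 kb, against 1.6. Among the 4 lists, c-Jun was the sparsest at Myod1 and Myog and the densest at Myf5 and Myf6. With scores of at least 100 the order at Myf5 and Myf6 turned, with 4 c-Jun and 6 MyoD peaks. The window ends were set by hand and differ in length, so these densities hold for the windows as drawn.

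**Figure D1:**
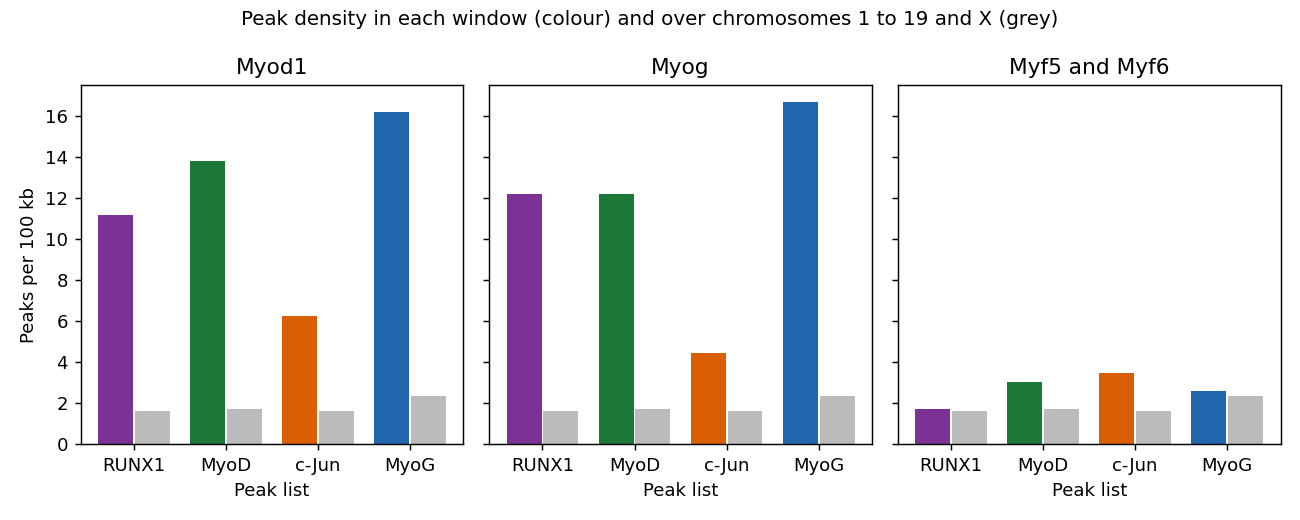
Peaks per 100 kb of each list in the 3 windows (coloured bars) and over chromosomes 1 to 19 and X (grey bars), with 1 value per list and no error. MyoD stood at 13.8 per 100 kb at Myod1 and 3.04 at Myf5 and Myf6, against 1.74 over the list.

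Of the 104 peaks, 5 stood at 3100: 1 of 24 RUNX1 peaks (0.979% of the whole list scored 3100 or more), 1 of 29 MyoD peaks (1.9%) and 3 of 34 MyoG peaks (1.24%). None of the 17 c-Jun peaks did (0.764%). The top 10% of the respective list, by score, held 3 RUNX1, 3 MyoD, 5 c-Jun and 9 MyoG peaks, against 10% of each whole list by construction. That is 12.5% and 10.3% of the RUNX1 and MyoD peaks at the loci, near the background, and 29.4% and 26.5% of the c-Jun and MyoG peaks. By locus, the top 10% held 1 of 9 RUNX1 and 1 of 11 MyoD peaks at Myod1, 2 of 11 of each at Myog, and 0 of 4 RUNX1 and 0 of 7 MyoD peaks at Myf5 and Myf6. For c-Jun it held 3 of 5, 1 of 4 and 1 of 8 peaks in the same order of loci. For MyoG it held 5 of 13, 4 of 15 and 0 of 6.

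The median score at Myod1 was 392 for RUNX1, 198 for MyoD, 1397 for c-Jun and 877 for MyoG. At Myog the medians were 248, 513, 382 and 753 in the same order. At Myf5 and Myf6 they were 118, 170, 94.6 and 159, each below the median of its whole list, which was 177 for RUNX1, 176 for MyoD, 171 for c-Jun and 189 for MyoG. The ranges overlapped between loci in every list. At the low end, 1 RUNX1 peak of the Myf5 and Myf6 window scored 50.4 and 1 c-Jun peak of the Myod1 window 50.8, close to the lowest score in the lists.

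**Figure D2:**
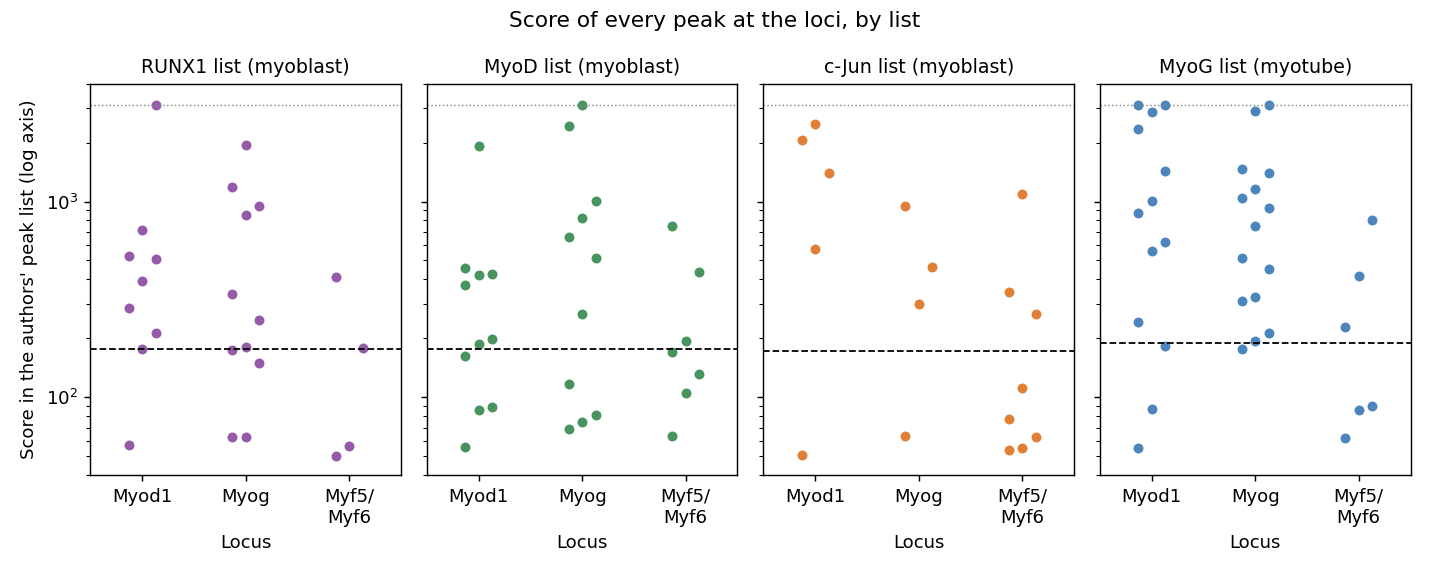
Score of every peak at the 3 loci (points, log axis), 1 panel per list, with the median of the whole list (dashed line) and a score of 3100 (dotted line). At Myf5 and Myf6 no peak reached 3100, and the highest c-Jun peak there scored 1090. At 3100 sat 1 RUNX1 and 2 MyoG peaks of Myod1, and 1 MyoD and 1 MyoG peak of Myog.

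At Myod1, binding gathered in a cluster of 4 regions that held peaks of all 4 lists. A region is the union of peaks that overlap by at least 1 bp. Factors are said to meet, or to show co-binding, where their peaks overlap in this way. Such an overlap does not show that factors were bound together in the same cells, and MyoG was measured at another cell stage. The 4 regions spanned chr7:53591968-53609906, and the window held 1 more such region at chr7:53630959-53633957. Each list was led by a different place within this cluster, except that RUNX1 and MyoG shared theirs.

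The highest RUNX1 and MyoG scores of the locus lay at chr7:53602790-53607018. A single RUNX1 peak of 3983 bp ran through most of this region with a score of 3100, and only 0.171% of RUNX1 peaks were as wide. Beneath it lay 3 MyoD peaks, with scores of 375, 198 and 419, 1 c-Jun peak of 3107 bp with a score of 571, and 4 MyoG peaks, with scores of 1436, 3100, 3100 and 86.7. The MyoD scores here were moderate within the MyoD list, of which 27.3% scored as high as the best of the 3. A pair of the MyoG peaks stood at 3100, which 1.24% of the MyoG list reached, and the MyoD peak under the first of these had its centre 0 bp away, after rounding.

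The next region, chr7:53607454-53609906, held the highest MyoD score of the locus. MyoD stood at 1912 there, a score that 4.9% of its list reached, and MyoG stood at 2857 (1.6%). c-Jun scored 2071 (2.45%) and RUNX1 524 (21.4%). This was the only region of the 3 windows in which MyoD, c-Jun and MyoG were each in the top 5% of their lists.

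The highest c-Jun score lay at the outer end of the cluster, at chr7:53591968-53594027. It was 2500, reached by 1.52% of the c-Jun list, beside scores of 713 for RUNX1 (15.3% of its list), 187 for MyoD (48.1%) and 183 for MyoG (51.1%). At chr7:53596339-53597894, c-Jun scored 1397 (5.44%), MyoD 457 (25.5%), MyoG 559 (23.3%) and RUNX1 176 (50.2%). In both regions the c-Jun peak was among the highest of its list. The MyoD and MyoG scores lay near the middle of theirs in the first region and in the top 25.5% and 23.3% in the second.

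Outside the cluster, the Myod1 window held a single c-Jun peak. This peak, in the 4-list region at chr7:53630959-53633957, scored 50.8, beside 286 for RUNX1, 85.7 for MyoD and 1009 for MyoG. That MyoG peak was 2211 bp wide, and 0.136% of the MyoG list was as wide. Regions with RUNX1, MyoD and MyoG but no c-Jun peak lay at chr7:53620877-53621942 and chr7:53626071-53627067. In the first of these the scores were 212 for RUNX1, 426 for MyoD and 2358 for MyoG, and in the second 392, 162 and 877. MyoG was in the top 2.71% of its list in the first, and MyoD in the top 27%.

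The remaining regions of the Myod1 window held fewer lists. MyoD and MyoG met at chr7:53637782-53638458, with scores of 55.8 and 243, and at chr7:53648164-53649046, with 89.3 and 55.3. RUNX1 was alone at chr7:53619399-53620140 (56.7) and chr7:53651315-53653588 (511), and MyoG was alone at chr7:53658736-53659549 (620). No MyoD or c-Jun peak of this window stood alone. All 11 MyoD peaks met a MyoG peak, against 77.1% of the whole MyoD list. All 5 c-Jun peaks met peaks of the other 3 lists. Over the whole c-Jun list, 46.8% met RUNX1, 44% MyoD and 45.1% MyoG.

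**Figure D3:**
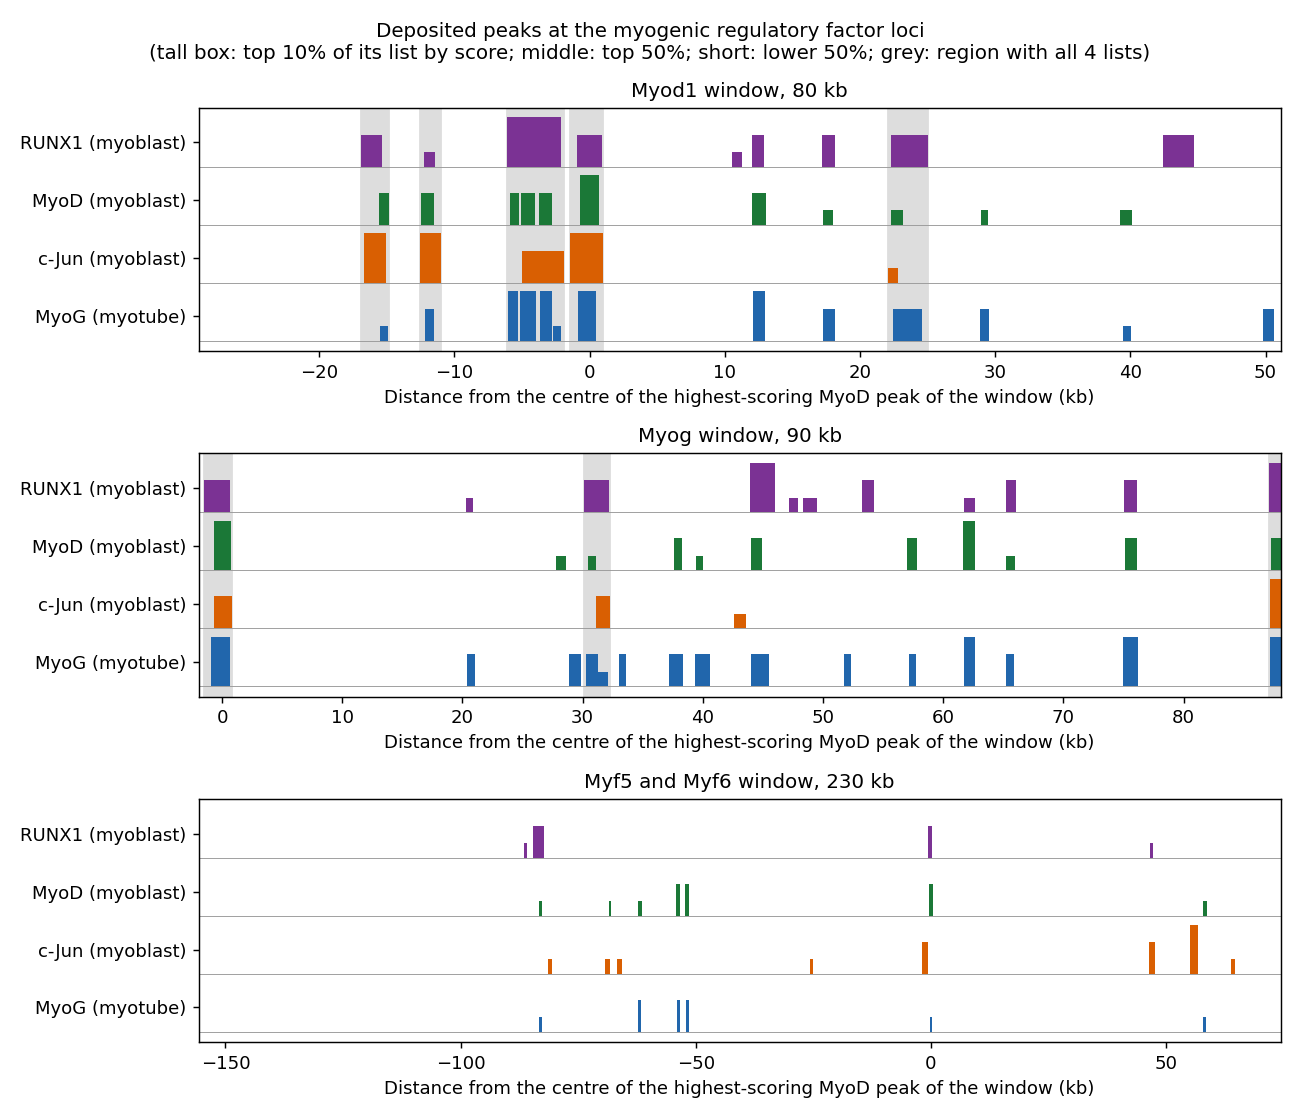
Peaks of the 4 lists along the 3 windows, as distance in kb from the centre of the highest-scoring MyoD peak, with box height for the rank class within the list and grey for regions holding all 4 lists. Of the 8 grey regions, 5 lay in the Myod1 window, 3 in the Myog window and 0 in the Myf5 and Myf6 window.

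At Myog, peaks of all 4 lists lay near both edges of the window. A c-Jun peak met 3 of the 11 MyoD peaks (27.3%, against 41.9% of the list) and 4 of the 15 MyoG peaks (26.7%, against 32.8%). The 19 regions included 3 with all 4 lists, and the widest gap without a peak of any list was 19.5 kb, to the right of the first region. MyoD and MyoG had their highest scores of the locus in that region at the left edge, chr1:136140448-136142753, where both stood at 3100, beside 946 for RUNX1 (10.7% of its list scored as high) and 301 for c-Jun (33.1%). The second, chr1:136172025-136174249, scored 338 for RUNX1, 81.3 for MyoD, 463 for c-Jun and 931 and 176 for 2 MyoG peaks. MyoD was weak there, since 78.9% of its list scored as high.

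The third such region crossed the right edge of the window and reached from 136229036 to 136231724 on chromosome 1. Its peaks that overlap the window scored 1936 for RUNX1, 266 for MyoD, 952 for c-Jun and 1471 for MyoG. RUNX1 had its highest score of the locus here, reached by 3.06% of its list, and so did c-Jun (9.95%). The region also held 1 further peak each of RUNX1, MyoD and MyoG beyond the edge, with a highest MyoD score of 999 and a highest MyoG score of 1682. Both outer regions of the window therefore held peaks of all 4 lists.

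Between these ends, 4 regions held RUNX1, MyoD and MyoG without c-Jun. At chr1:136185899-136187940 the scores were 1191 for RUNX1 (7.73% of its list), 656 for MyoD (18.5%) and 1154 for MyoG (10.1%). A c-Jun peak, scoring 63.6, ended 407 bp short of the RUNX1 peak and 464 bp short of the MyoG peak there. This was the only region of the window's interior with RUNX1 in the top 10% of its list.

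MyoD led in another of them. At chr1:136203546-136204600 it scored 2424 (3.25% of its list), beside 1394 for MyoG (7.62%) and 175 for RUNX1 (50.5%). At chr1:136216854-136218164, MyoG scored 2893 (1.54%), MyoD 1006 (11.9%) and RUNX1 856 (12.3%). The fourth, chr1:136207128-136207971, was weaker, with 181 for RUNX1, 75.1 for MyoD and 193 for MyoG. The same 3 factors thus met at scores that differed widely along the locus.

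MyoD and MyoG met without a RUNX1 or c-Jun peak in 3 regions of the Myog window. At chr1:136198926-136199766 the scores were 824 and 1039, and their centres lay 0 bp apart after rounding. At chr1:136179109-136180252 they were 513 and 450, and at chr1:136181286-136182567 they were 68.7 and 515. RUNX1 and MyoG met without MyoD once, with scores of 63 and 325 at chr1:136162232-136162957. Of 8 regions with a single list, 3 were RUNX1 alone, 3 MyoG alone (213 to 753), 1 MyoD alone (117, at chr1:136169738-136170551) and 1 c-Jun alone (63.6, at chr1:136184563-136185491). The lone RUNX1 peaks scored 62.6 at chr1:136189093-136189846, 150 at chr1:136190243-136191405 and 248 at chr1:136195162-136196186.

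At Myf5 and Myf6, no region held all 4 lists when peaks had to overlap, and 1 did when peaks within 150 bp were joined. Of the 8 c-Jun peaks, 7 overlapped no MyoD peak and none overlapped MyoG. Over the whole c-Jun list, 44% of peaks met MyoD and 45.1% met MyoG. The 15 regions lay between 106919125 and 107070256 on chromosome 10, with a widest gap of 45.9 kb, and no peak of any list lay in the window before the first of them.

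RUNX1, MyoD and MyoG met at chr10:106920949-106923493, with scores of 414, 105 and 90.5, and at chr10:107005073-107006174, with scores of 179, 751 and 61.6. The first held the highest RUNX1 score of the locus (26.9% of its list scored as high), on a peak of 2545 bp. RUNX1 was alone nearby, with a score of 56.2 at chr10:106919125-106919842. The second held the highest MyoD score (16.1%), beside a MyoG peak that 90.2% of its list matched or exceeded. At Myod1 and Myog the MyoD peak with the highest score met a MyoG peak of 2857 and 3100, so the pairing of a leading MyoD peak with a weak MyoG peak was seen at this locus alone among the 3.

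The leading MyoG peaks of the locus were with MyoD alone. At chr10:106953380-106954230 MyoG scored 802 (16.3% of its list) and MyoD 437 (26.5%), and at chr10:106951530-106952413 the scores were 418 and 193. MyoD and MyoG also met at chr10:106943345-106944220 (170 for MyoD and 228 for MyoG) and at chr10:107063472-107064337 (132 and 86.3). All 6 MyoG peaks of the window met a MyoD peak, against 57.7% of the whole MyoG list. None of the 6 met a c-Jun peak, against 32.8% of the list.

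The c-Jun peaks of this window stood mostly alone. Over the whole c-Jun list, 46.8% of peaks met RUNX1, 44% MyoD and 45.1% MyoG. The share of that list that met none was not counted, but regions with c-Jun alone numbered 14245, beside 42134 peaks in the c-Jun list. They made up 14.3% of all regions, a share whose base is the regions of every list and not the c-Jun peaks. Of the 8 peaks here, 6 met no other list. Another met RUNX1 at chr10:107052085-107053227 (265 for c-Jun and 50.4 for RUNX1), and 1 met MyoD at chr10:106936404-106937685 (112 for c-Jun and 63.1 for MyoD). The highest, 1090 at chr10:107060803-107062359, was reached by 8.12% of the c-Jun list and ended 1112 bp from the nearest MyoD peak. The next, 344 at chr10:107003827-107005064, ended 8 bp before the RUNX1 peak and 86 bp before the leading MyoD peak of the locus. The other 4 that stood alone scored 62.4 at chr10:106924174-106925144, 77.1 at chr10:106938994-106940033, 55.2 at chr10:106979887-106980634 and 53.7 at chr10:107069373-107070256.

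Co-binding at the 3 loci was set beside that of all regions. Of the 99548 regions formed from the 4 lists, 10.7% held all 4, 15% held 3, 26% held 2 and 48.3% held 1. At Myod1, 5 of 12 regions held all 4 lists (41.7%), at Myog 3 of 19 (15.8%) and at Myf5 and Myf6 0 of 15. Exactly 3 lists were found in 2, 4 and 2 regions in the same order, and all 8 of these combined RUNX1, MyoD and MyoG. No region of the 3 windows joined c-Jun with exactly 2 other lists, although 8.32% did so over all regions. Pairs of lists numbered 2, 4 and 6 and single lists 3, 8 and 7. These regions chain overlaps of as little as 1 bp and were not recounted by the distance between peak centres. Of the overlapping peaks at the loci, 2 of 10 MyoD peaks lay within 150 bp of a c-Jun centre. For RUNX1 peaks with c-Jun it was 2 of 9.

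**Figure D4:**
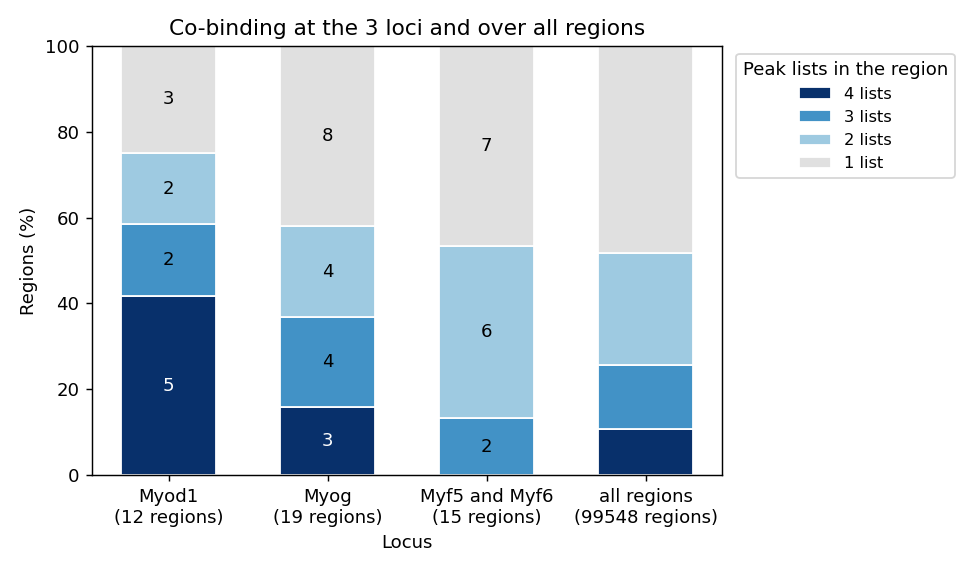
Share of regions that held peaks of 4, 3, 2 or 1 lists at each locus and over all 99548 regions, with the number of regions printed in each part of the bars for the loci. All 4 lists were present in 41.7% of regions at Myod1, 15.8% at Myog and 0 of 15 at Myf5 and Myf6, against 10.7% over all regions.

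By list, 27 of the 29 MyoD peaks at the loci met a MyoG peak (93.1%, against 77.1% of the whole list). The exceptions scored 117 at Myog and 63.1 at Myf5 and Myf6, but MyoD peaks as low as 55.8 did meet MyoG. With scores of at least 100, 18 of 22 MyoD peaks met a MyoG peak (81.8%), nearer to the 76.7% of the list. Of the 34 MyoG peaks, 27 overlapped MyoD (79.4%, against 57.7%). A RUNX1 peak met 9 of 11 MyoD peaks at Myod1, 7 of 11 at Myog and 2 of 7 at Myf5 and Myf6, in all 62.1% against 42.5% of the list. A c-Jun peak met 6, 3 and 1 of the same peaks, in all 34.5% against 41.9%.

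These shares rest on an overlap of 1 bp. With centres within 150 bp, RUNX1 was at 24.1% of the MyoD peaks at the loci and 23.2% of those in the list, so the locus share was near the background. By the same setting c-Jun was at 6.9% against 24.3%, and MyoG at 72.4% against 67.6%. The RUNX1 share stayed above the list with an overlap of at least 50% of the shorter peak (58.6% against 40.4%). It also did so with scores of at least 100 (68.2% against 39.1%). The median centre distance of overlapping peaks at the loci was 64 bp for MyoD and MyoG, 183 bp for RUNX1 and MyoD and 262 bp for MyoD and c-Jun, against 54, 123 and 116 bp over the lists. RUNX1 and c-Jun peaks were wider than MyoD and MyoG peaks, with medians of 1039 and 1200 bp at the loci against 849 and 808.5 bp.

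RUNX1 peaks at the loci met MyoD in 16 of 24 cases (66.7%, against 44.3% of the list), MyoG in 17 (70.8%, against 57.9%) and c-Jun in 9 (37.5%, against 46.8%). The 9 c-Jun peaks that met RUNX1 (52.9%, against 46.8%) comprised 5 of 5 at Myod1, 3 of 4 at Myog and 1 of 8 at Myf5 and Myf6. For c-Jun with MyoD the counts were the same, 5, 3 and 1 (in all 52.9%, against 44%), and for c-Jun with MyoG they were 5, 3 and 0 (47.1%, against 45.1%). The pooled c-Jun shares were near the background, and the loci lay on both sides of it. MyoG peaks met RUNX1 in 61.8% of cases (42.4% of the list) and c-Jun in 32.4% (32.8%).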

How the data were processed

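ChIP-seq of RUNX1, MyoD, c-Jun and MyoG was deposited as 1 peak list per factor. Per the submitters' processing notes, the build was mm9 and the tools were CASAVA 1.7.0 and 1.8.2 and Bowtie. Peak names in the deposited lists begin with MACS, a peak caller; its version, settings, control and treatment of replicates were not given in the sources used here. Each peak's score is the value the authors deposited, with no normalization stated, and serves only to rank peaks within a list.

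Starts were converted to 1-based positions. No peak lay beyond an mm9 chromosome end (0 in each list), whereas between 328 and 550 per list lay beyond an mm10 end. Chromosomes 1 to 19 and X formed the background. Peaks that overlapped a window were members. Peaks were counted as shared from 1 bp of overlap, and overlapping peaks of the 4 lists were joined into regions. Tiles were consecutive stretches of each window's length. Scripts used Python 3.11.15, scipy 1.17.1, numpy 2.4.6 and matplotlib 3.10.9 and were tested on simulated data with planted overlaps. The text names the regions that held 3 or 4 lists, the highest-scoring peak of each list, every peak at 3100 and, where a list had up to 12 peaks in a window, all of them. The members, windows and lists were chosen with earlier results of these data known, and the form of the MEF2 site after the promoters were seen. The other genes of the pathway, which need an mm9 annotation, and the control samples were not analysed here.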

Additional observations from a re-analysis of the deposited data

How the results depend on the processing

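Of 78 alternative values for the counts, shares and densities, 60 stayed within 1.5 times the count, or within the 95% exact binomial interval of the share or density, and 18 did not. Windows extended by 50 kb on each side raised the Myod1 counts to 21 RUNX1, 21 MyoD, 13 c-Jun and 23 MyoG peaks and the Myog counts to 19 RUNX1, 18 MyoD and 12 c-Jun peaks. They gave 24 regions at Myod1, 9 of them with all 4 lists, and 31 at Myog, 6 of them with all 4; a longer window holds more peaks by construction. With scores of at least 100, the Myf5 and Myf6 window kept 2 RUNX1, 4 c-Jun and 3 MyoG peaks, beside 6 MyoD peaks. Joining peaks within 150 bp gave 1 region with all 4 lists at Myf5 and Myf6, where there had been 0. With centres within 150 bp, the share of MyoD peaks that met MyoG, RUNX1 and c-Jun fell to 72.4%, 24.1% and 6.9%. Peaks wholly inside the window, an overlap of at least 50% of the shorter peak, and bp covered in place of peak number changed no result past these limits. By bp covered, however, the RUNX1 density over the list at Myod1 was 11.1 in place of 6.94. For c-Jun it was 6.22 in place of 3.91. Both lay within wide intervals (3.17 to 13.2 and 1.27 to 9.13). All the binomial intervals used here treat neighbouring peaks of a locus as independent, which they are not. They give no spread between cultures, and a value inside them does not show that a result was stable. No paired analysis was possible because each list holds 1 set of peaks for a factor and carries no replicate, and leaving out a replicate could not be run for the same reason. Depth is unknown, so a missing peak does not show that a factor was absent.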

Other observations

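Peaks just outside the windows were looked at after the members had been described. Within 50 kb of the Myod1 window lay 12 RUNX1, 10 MyoD, 8 c-Jun and 10 MyoG peaks, on both sides of it. The highest MyoG peak of these, at chr7:53572042-53572995, stood at 3100, and the highest RUNX1 peak, at chr7:53555434-53557246, scored 3026. Per 100 kb, RUNX1 (12 against 11.2) and c-Jun (8 against 6.25) were denser in these flanks than in the window. MyoD (10 against 13.8) and MyoG (10 against 16.2) were less dense. Over the whole lists the densities were 1.62 for RUNX1, 1.74 for MyoD, 1.6 for c-Jun and 2.37 for MyoG. The density of binding at Myod1 therefore did not end at the window.

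The flanks of the Myog window held 8 RUNX1, 7 MyoD, 8 c-Jun and 6 MyoG peaks. Per 100 kb, c-Jun was denser there (8) than inside the window (4.44), while the other lists were less dense there than inside. To the left of the window, a MyoG peak at chr1:136089135-136093615 and a MyoD peak at chr1:136090501-136093447 both stood at 3100. Beside them lay the highest c-Jun peak of the flanks, 1297 at chr1:136090021-136093396. Around the Myf5 and Myf6 window the flanks held 0 RUNX1, 1 MyoD, 2 c-Jun and 1 MyoG peak, none of them to the left. Over the whole lists, 1.62, 1.74, 1.6 and 2.37 peaks fell per 100 kb in the same order, so these small counts show no clear depletion. The MyoD peak of these flanks, 1421 at chr10:107099154-107100397, scored above every MyoD peak inside that window. It lay within a c-Jun peak of 1835 at chr10:107099127-107100809.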
